A study of Saccharomyces cerevisiae with 6 samples.

Results

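The transcriptome of IMX606 was set against that of IMX372, a pair of Saccharomyces cerevisiae (baker's yeast) strains whose genes of glycolysis and alcoholic fermentation lie at different places. The labels describe IMX606 as carrying its glycolytic genes at a single locus on chromosome IX. IMX372, titled MG aerobic, has them at native loci, which by the series' design text are those of the major paralogs. Another strain, IMX605, has the single locus on chromosome V. It shared the estimate of the spread and was set beside IMX606 where the values called for it. Each strain is described as sampled in biological duplicate. For the single-locus strains the labels name aerobic bioreactor cultures on SMD medium, and poly(A) RNA was sequenced from libraries made with a strand-marking kit. The members are the 5454 of 5625 gene models whose mean over the libraries R13 and R8 of IMX606, with DSE001 and DSE002 of IMX372, was at least 1 FPKM, a read count scaled by gene length and by the reads of the library. The other 171 models were below it, and SMA1 and ZNF1 lay just inside the limit (1.00 FPKM each) and SPS22 (0.995) and FDH1 model 1 (0.969) just outside.

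The libraries held 18754741 and 21370278 reads on genes in IMX606, against 70510681 (DSE001) and 19100242 (DSE002) in IMX372, and 3 reads, taken as the limit of detection, equal 0.0425 to 0.160 FPKM for a 1 kb gene, a limit for counting error alone. Since the labels of the IMX372 samples point to an older deposit, strain and library set cannot be told apart. Genes specific to the a mating type, such as the pheromone receptor gene STE2 (451 and 477 FPKM in IMX606, 647 and 744 in IMX372), were abundant in both strains. The α-cell receptor gene STE3 lay between 4.63 and 6.99 FPKM in all 4 libraries. Other α-cell genes lay on both sides of that range. SAG1 had 18.1 and 17.1 FPKM in IMX606, against 16.1 and 16.3 in IMX372. MF(ALPHA)2 had 1.18 and 0.902 FPKM in IMX606, against 19.3 and 14.6 in IMX372, while MF(ALPHA)1 had at most 2.75 FPKM.

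Glycolysis splits glucose into pyruvate, and in yeast most of that pyruvate is decarboxylated and reduced to ethanol even when oxygen is present. Its transcripts are among the most abundant of the cell, and most steps have a major isoenzyme gene that is highly transcribed on sugar beside minor paralogs. All values are shares of the RNA of a culture, so less RNA in each cell and fewer cells making it cannot be told apart.

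Across the genome the 2 strains differed widely, at mostly moderate size. On log2(FPKM + 1) values, a scale that understates the changes of low genes, limma called 1301 of 5454 models at a Benjamini-Hochberg adjusted p under 0.05, which is 23.9%. Of these 597 (10.9%) were higher in IMX606 and 704 (12.9%) lower. The counts of called genes in each gene list below are to be read beside these shares. Changes of at least 2-fold were made by 174 models upward (3.19%) and 106 downward (1.94%). The median change of all models was -0.06, and for each of the 1301 calls both IMX606 cultures lay on the same side of both IMX372 cultures. Such separation was common, since 3404 of all 5454 models showed it, called or not. The median absolute difference between 2 cultures of a strain was 0.139 on the log2 scale in IMX606 and 0.138 in IMX372, against a median absolute change of 0.209 between the strains. With median-of-ratios scaling the balance turned to 735 higher and 561 lower, and without IMX372 DSE002 the count fell to 598, of which 331 were higher and 267 lower. Of the 106 falls of at least 2-fold, 91 were of genes with a mean under 20 FPKM. A gene with a mean under 1 FPKM in 1 strain can pass the filter only through the other, and can then be called in 1 direction only. Genes with a near-identical copy elsewhere were called higher in 84 of 159 cases (52.8%), against 9.69% of the genes without one, and are given below as uncertain.

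**Figure D1:**
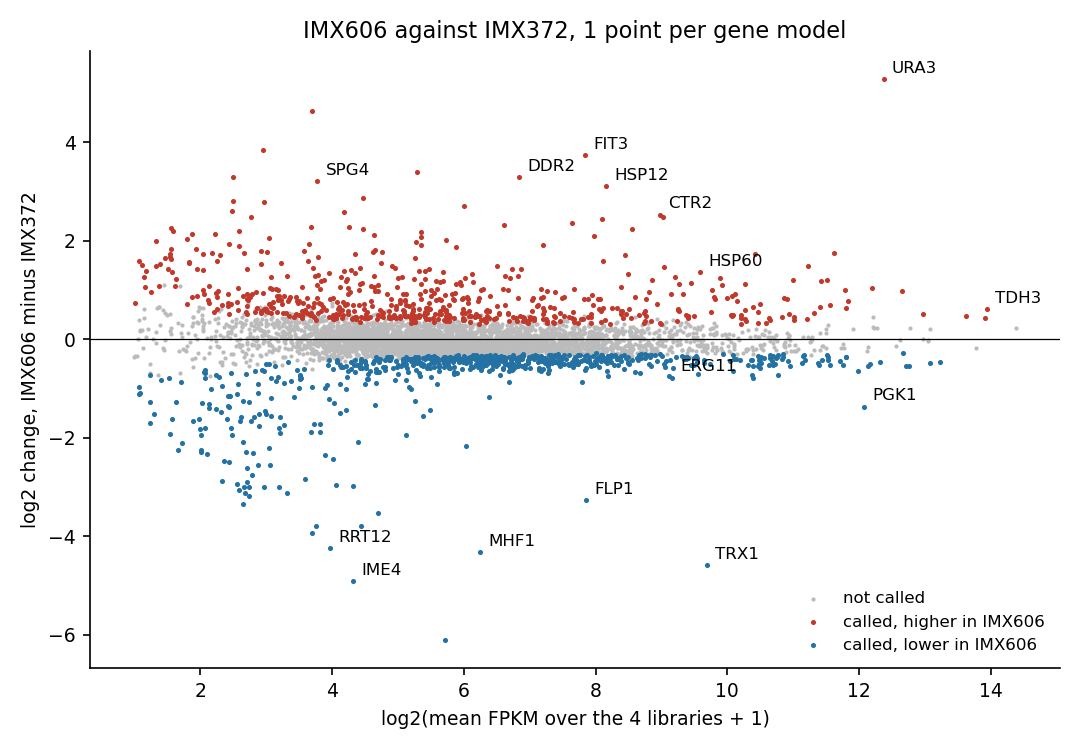
Log2 change of each gene model (IMX606 minus IMX372, vertical axis) against its mean level (log2 of the mean FPKM + 1, horizontal axis). Red points are the 597 models called higher, blue points the 704 called lower and grey points the rest, and the falls of the greatest size lie at low levels apart from a few such as TRX1 and FLP1.

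The labels name no genes, and the 13 followed as relocated are the major paralogs as generally known. Of these, 5 were called higher in IMX606, 2 lower and 6 neither. Their median change was 0.20. In the upper pathway the hexokinase gene HXK2 had 652 and 842 FPKM in IMX606 and 793 and 825 in IMX372, a change of -0.13 (adjusted p = 0.481), and the phosphoglucose isomerase gene PGI1 had 796 and 922 against 1011 and 901 (-0.16, adjusted p = 0.328). The groups overlapped for both genes. Both genes of phosphofructokinase, the committing step, rose. PFK1 had 382 and 494 FPKM in IMX606, against 304 and 267 in IMX372 (0.61, SE 0.13, adjusted p = 0.00609), and PFK2 had 298 and 344 against 234 and 199 (0.57, SE 0.12, adjusted p = 0.00481). Both IMX606 cultures lay above both IMX372 cultures, with R8 the higher of the 2 in each gene. The aldolase gene FBA1 (11905 and 14334 against 15963 and 13860.1 FPKM, a change of -0.19, adjusted p = 0.260) and the triose phosphate isomerase gene TPI1 (7665 and 8493 against 8370.4 and 7708, a change of 0.01, adjusted p = 0.969) had overlapping groups.

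The lower pathway held the largest fall and most of the rises. PGK1, phosphoglycerate kinase, is annotated on chromosome III from 142895 to 144145 in the deposited table. It had 2144 and 2688 FPKM in IMX606, against 6857 and 5594 FPKM in IMX372, or 38.8% of the IMX372 mean (-1.37, SE 0.13, adjusted p = 1.73e-05). The groups stood far apart, and PGK1 was the only one of the 13 that changed by at least 2-fold. TDH3, the main glyceraldehyde-3-phosphate dehydrogenase gene, had 18635 and 19276 FPKM against 14079 and 10865 (0.62, SE 0.12, adjusted p = 0.00312), which is uncertain because of its near-identical copy TDH2. GPM1, phosphoglycerate mutase, had 13466 and 15936 against 11115 and 10004 FPKM (0.47, adjusted p = 0.00930). ENO2, enolase, had 9715 and 9076 against 7293 and 5864 (0.52, SE 0.11, adjusted p = 0.00562). In all 3 the IMX606 cultures lay above those of IMX372. CDC19, pyruvate kinase, had 4244 and 3942 against 3786 and 3343 FPKM (0.20, adjusted p = 0.165), groups that did not overlap but lay close.

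In the fermentative branch PDC1, the main pyruvate decarboxylase gene, had 7136 (R13) and 3957 (R8) FPKM in IMX606, against 4307 and 3503 in IMX372 (0.45, SE 0.21, adjusted p = 0.142). The 2 IMX606 cultures differed from each other by more than the strain means did, and without R8 the gene was called (adjusted p = 9.91e-05). ADH1, the main alcohol dehydrogenase gene, had 6841 and 7516 against 11305 and 8763 FPKM and fell by 0.47 (SE 0.13, adjusted p = 0.0209). That call ended without IMX606 R13 (adjusted p = 0.0675), without IMX372 DSE001 (0.171), without the filter on low values (0.0930) and with median-of-ratios scaling (0.0822). Leaving out IMX372 DSE002, the lower control culture for each of the 5 rises, ended the calls of PFK1 (0.0881), PFK2 (0.0651), ENO2 (0.0744) and GPM1 (0.115), so that 1 of the 13 was higher and 2 lower. GPM1 also lost its call without R8 (0.0687) and without the filter (0.0617). The calls of PGK1 and TDH3 held in each of the 13 settings tried.

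**Figure D2:**
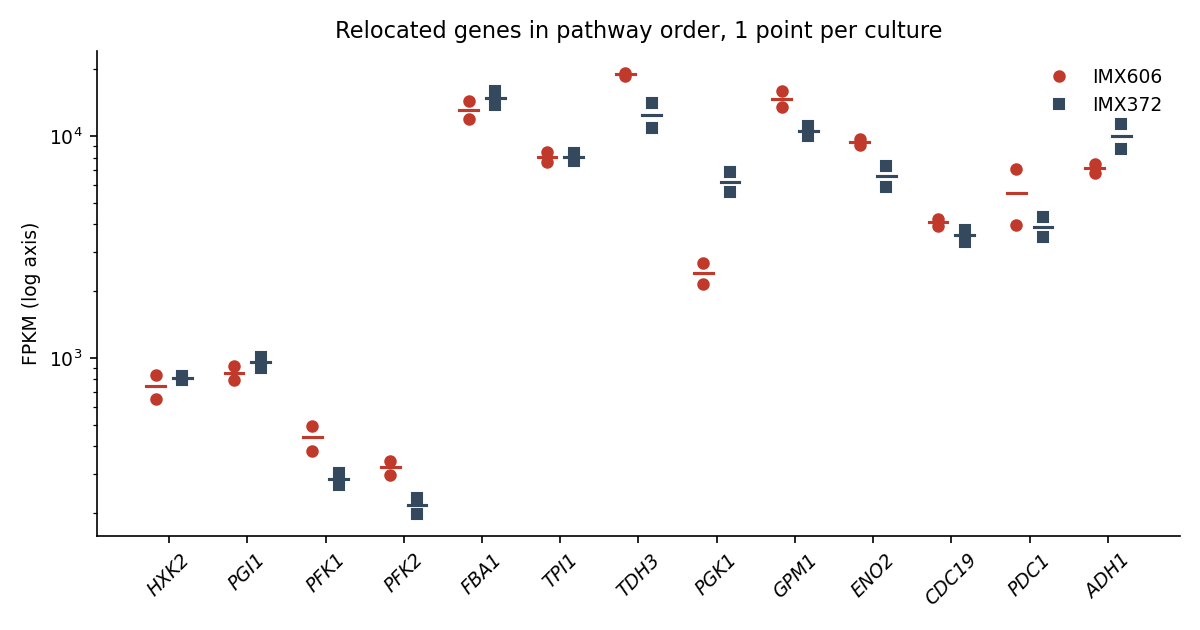
FPKM of the 13 relocated genes in pathway order (log axis), with 1 point per culture, red circles for IMX606 on the left and dark squares for IMX372 on the right of each gene, and a bar at the mean of 2. PGK1 lies at 2144 and 2688 FPKM in IMX606 against 6857 and 5594 in IMX372, and PDC1 shows the widest spread between the IMX606 cultures.

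Summed over the 13 genes, transcript came to 83879 and 87821 FPKM in IMX606, against 85418 and 71696 FPKM in IMX372. The groups overlapped, since R13 lay between the IMX372 cultures. The means were 85850 ± 2788 and 78557 ± 9703 FPKM (SD, n = 2 each), a difference of 7293 FPKM (two-sided exact permutation test, p = 0.667, where 0.333 is the smallest p that 2 against 2 allows). The sum without DSE002 differed by 432 FPKM and without DSE001 by 14154 FPKM. As a share of reads on genes these sums made up 9.25% and 9.39% in IMX606, against 9.32% and 7.79% in IMX372. Of the 9 regulators of glycolysis listed, which include the activators GCR1, GCR2, TYE7 and RAP1, limma called 0, with changes between -0.25 and 0.34. Median-of-ratios scaling, quantile normalization and voom on the reads each called 1 of them higher, as did the fit without R13.

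The minor paralogs stayed far below these levels, and 6 of the 12 with a single gene model passed the filter. HXK1, a second hexokinase gene, had 6.14 and 3.18 FPKM in IMX606, against 0.292 and 0.359 in IMX372 (2.04, adjusted p = 0.000140). It lies beside an abundant gene on the opposite strand and is uncertain. TDH2 had 6.89 and 6.42 against 23.1 and 43.4 FPKM (-2.10, adjusted p = 0.00520), uncertain for its copy TDH3, and its call ended without DSE002 (adjusted p = 0.120), as it did with no filter (0.0617). The alcohol dehydrogenase gene ADH4 fell to 2.23 and 2.97 FPKM, against 4.39 and 5.83 (-0.76, adjusted p = 0.0209), a call that ended without R13 (0.0578) and without DSE002 (0.189).

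Genes beside the native loci of the 13 changed in both directions, several of them far. Of the 26 nearest gene models, 1 on each side of each locus, 6 were called higher and 11 lower, which is 65.4% beside the 23.9% of all models, and 9 changed by at least 2-fold. Of the 26 next models outward 5 were called higher and 2 lower (26.9%), and 1 changed by at least 2-fold. The median absolute change was 0.50 in the nearest and 0.20 in the next models. The labels do not state how the native loci were altered. The sources used here do not give the strand setting of the counting.

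The falls among the nearest models were led by TRX1, a cytosolic thioredoxin gene next to PDC1. It had 79.1 and 52.5 FPKM in IMX606, against 1491 and 1669 FPKM in IMX372 (-4.59, SE 0.16, adjusted p = 9.57e-09), so IMX606 held 4.16% of the IMX372 mean. MHF1, a component of a DNA repair complex beside ADH1, had 7.03 and 5.49 FPKM, against 151 and 137 (-4.33, adjusted p = 2.41e-07). PDX1, a subunit of pyruvate dehydrogenase beside TDH3, had 19.3 and 26.8 FPKM, against 104 and 107 (-2.16, adjusted p = 1.40e-06). The groups were far apart in all 3 genes. In IMX605, set against the same IMX372 libraries, the changes were -4.26 for TRX1 and -2.44 for PDX1. YHR173C beside ENO2 fell by 2.95, BLI1 beside FBA1 by 1.56, MSI1 beside PGI1 by 1.26 and ADP1 beside PGK1 by 0.89 on the log2 scale. MHF1, YHR173C and BLI1 are uncertain, since the relocated gene beside each lies on the opposite strand and is abundant.

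Rises were called beside ENO2, PFK2, PFK1, GPM1 and ADH1. CTR2, a copper transporter gene on the other side of ENO2, had 857 and 864 FPKM in IMX606, against 153 and 143 FPKM in IMX372 (2.53, SE 0.10, adjusted p = 1.81e-08). Beside PFK2, YMR206W had 19.5 and 21.1 against 3.48 and 3.22 FPKM (2.29, adjusted p = 3.15e-07), and INP1, which retains peroxisomes in the mother cell, had 40.7 and 47.6 against 14.6 and 16.7 FPKM (1.44, adjusted p = 2.50e-05). Each of these genes lay well above both control cultures in both IMX606 cultures. The next models outward from ENO2, SPC97 and FMO1, rose by 1.25 and 0.93, and HFA1 beyond YMR206W rose by 0.94. The calls of PEX21 and YAP1802 beside PFK1, NNR2 beside GPM1 and PHM7 beside ADH1, of 0.41, -0.37, 0.39 and 0.74, ended when 1 of several libraries was left out, DSE002 among them (adjusted p = 0.0975, 0.101, 0.266 and 0.114). Around HXK2 and CDC19 no nearest model was called, and CYC3 beside CDC19 was called without DSE001 (adjusted p = 0.00567).

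**Figure D3:**
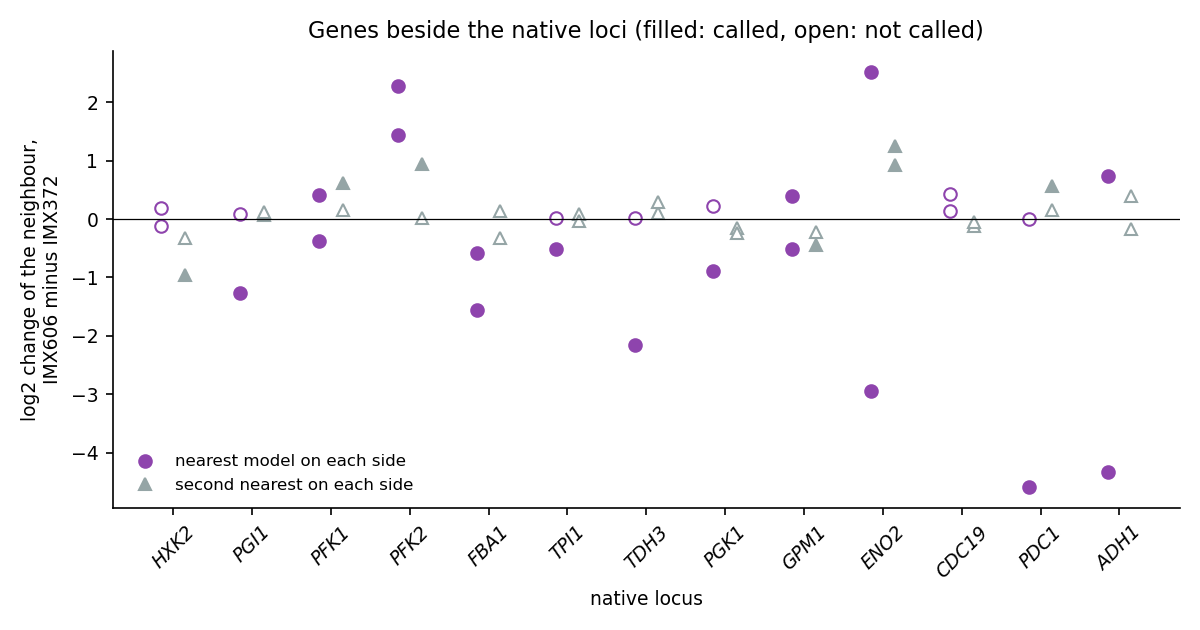
Log2 change (IMX606 minus IMX372) of the genes beside each native locus, with purple circles for the nearest model on each side and grey triangles for the next one outward, filled where called. TRX1 beside PDC1 (-4.59) and MHF1 beside ADH1 (-4.33) lie lowest and CTR2 beside ENO2 (2.53) highest.

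One stretch of chromosome XII rose almost as a block. It was picked out after its values were seen, and its limits come from them, so the counts describe it. From YLR257W to the condensin subunit gene YCS4, at 618072 to 646420 in the deposited table (28.3 kb), 13 of 15 gene models were called higher in IMX606 and 0 lower, with a median change of 1.02 and a range of 0.14 to 1.48. The 20 models flanking it, 10 on each side, had a median of -0.10, with 0 called higher and 4 lower. Inside it HSP60, the mitochondrial chaperonin gene, had 1148 and 1059.7 FPKM in IMX606, against 456 and 402 FPKM in IMX372 (1.36, SE 0.11, adjusted p = 5.05e-06). TMA7, a ribosome-associated protein gene, had 3569 and 3471 against 1181 and 1338 FPKM (1.48, adjusted p = 8.69e-07), and RPS28B, a ribosomal protein gene, had 6229 and 6459 against 3005 and 3139.5 FPKM (1.05, adjusted p = 9.48e-06). PDR8, a transcription factor gene (35.7 and 43.5 against 32.1 and 39.7 FPKM), and BOP2 (7.59 and 13.6 against 8.05 and 9.66 FPKM) had overlapping groups in its middle. Without R13 BOP2 was called higher too (0.58, adjusted p = 0.0418), which made 14 of the 15. Leaving out each library in turn kept the median between 0.94 and 1.08. IMX605 minus IMX372 gave a median of 1.09 over the same models and IMX606 minus IMX605 one of -0.07. Those comparisons share libraries with this one, and in IMX605 against IMX372 29.9% of models were called.

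**Figure D4:**
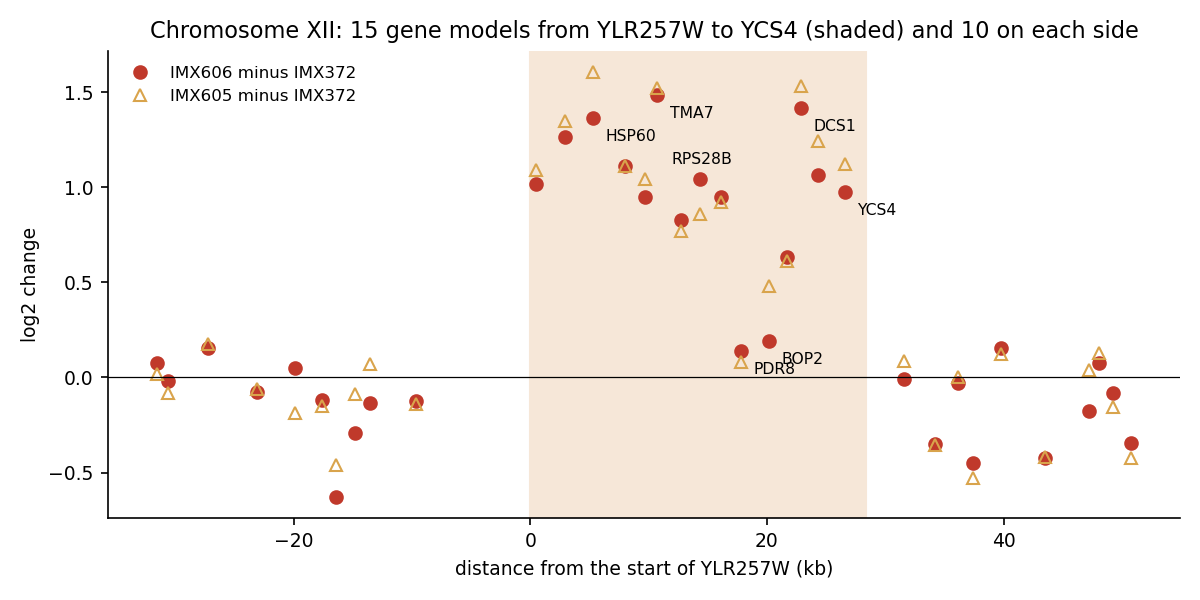
Log2 change of gene models along chromosome XII against distance in kb from the start of YLR257W, with red circles for IMX606 minus IMX372 and open triangles for IMX605 minus IMX372, which share the IMX372 libraries. Inside the shaded stretch of 15 models 13 are called higher in IMX606, while PDR8 (0.14) and BOP2 (0.19) are not called. In IMX605 minus IMX372 PDR8 is at 0.08 and BOP2 at 0.48.

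On chromosome IX, where the label puts the locus of IMX606, the labels do not name the position. The 194 tested models there had a median change of 0.00, with 25 called higher (12.9%, against 10.9% of all models) and 32 lower (16.5%, against 12.9% of all). Of these, 4 rose and 5 fell by at least 2-fold, and 6 of the 9 are gene models that share a name with others and are uncertain. The other 3 were RGI2, a gene of respiratory growth (10.7 and 7.18 FPKM in IMX606, 0.458 and 0.317 in IMX372), the thiolase gene POT1 (1.66 and 2.39 against 6.75 and 6.76) and the drug exporter gene QDR2 (1.69 and 2.33 against 6.67 and 6.70). No tested model of the chromosome was under 1 FPKM in both IMX606 libraries and over 5 FPKM in both of IMX372.

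SGA1, a glucoamylase gene of sporulation at a much used integration site on chromosome IX, was near its control level. It had 1.29 and 1.59 FPKM in IMX606 (40 and 56 reads), against 1.97 and 1.24 FPKM in IMX372 (229 and 39 reads), a change of -0.08 (adjusted p = 0.840). Of the 13 models within 10 kb of it 0 were called higher and 2 lower (15.4%, against 12.9% of all models). These were DPH1 (-0.56, adjusted p = 0.00683) and YIL102C (-0.98, adjusted p = 0.0393). YIL102C, a short model, had 0.287 and 0.503 FPKM in IMX606, against 2.52 and 1.13 in IMX372. Its IMX606 values lie under the 3 reads taken as the limit of detection. The DPH1 call ended without DSE002 (0.0733), and that of YIL102C without DSE001 (0.311) or DSE002 (0.0701). FMC1, an assembly factor gene of ATP synthase next to SGA1, had 88.9 and 68.2 FPKM in IMX606 and 2.65 and 6.69 FPKM in the libraries labelled IMX605, against 91.5 and 83.6 in IMX372. SGA1 had 0 and 0.0311 FPKM in those of IMX605. CAN1, the arginine permease gene on chromosome V, had 119 FPKM in both libraries of IMX606, 9.16 and 9.78 in those labelled IMX605 and 93.1 and 108 in IMX372. These genes of both sites were low in the libraries labelled IMX605 and near the level of IMX372 in those labelled IMX606. The locus of IMX606 was not located here.

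URA3, a gene of uracil synthesis widely used as a selection marker, made the largest rise of any gene with 1 model and no copy or abundant opposite-strand neighbour. It had 10901 and 9769.5 FPKM in IMX606, against 276 and 250.1 in IMX372 (5.29, SE 0.10, adjusted p = 2.86e-11). The groups differed by far more than their cultures. In the rest of pyrimidine synthesis URA2, the enzyme of the first steps, had 178 and 165 against 122 and 90.9 FPKM (0.70, adjusted p = 0.00387) and FUR1, of uracil salvage, rose by 0.56, a call that ended without R13 (0.131), DSE001 (0.135), DSE002 (0.105) or the filter (0.0831), while the other 9 of the 12 genes were not called. URA3 and the place of the glycolytic genes differ together between these strains, and their parts in any change cannot be told apart.

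Genes of the 2-micron plasmid, a circular element that most laboratory yeasts carry, moved in both directions. FLP1, its recombinase gene, fell to 47.7 and 37.7 FPKM in IMX606, against 393 and 442 in IMX372 (-3.27, SE 0.13, adjusted p = 2.00e-08). The partitioning genes REP1 (746 and 728 against 472 and 494 FPKM, 0.61) and REP2 (901 and 784 against 441 and 443 FPKM, 0.93) rose, with adjusted p of 0.000843 for REP1 and 7.05e-05 for REP2.

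Genes of the general stress response, a programme that yeast turns on under many stresses and as growth slows, were higher in IMX606. Of 30 tested, 19 were called higher and 0 lower, with a median of 0.75, and 11 rose by at least 2-fold. Fewer were called higher without R8, DSE001 or DSE002, where the median was 0.62, 0.78 and 0.71. HSP12, a small membrane heat shock protein gene, had 471 and 547 FPKM in IMX606, against 63.5 and 52.7 FPKM in IMX372 (3.11, SE 0.17, adjusted p = 1.68e-07). DDR2 had 184 and 232 against 21.1 and 19.1 FPKM (3.30, SE 0.18, adjusted p = 1.68e-07), and SIP18, a hydrophilin gene of water stress, had 34.0 and 26.1 against 3.43 and 5.02 FPKM (2.58, adjusted p = 1.37e-06). The groups of each of these genes were far apart. TMA10 had 219.8 and 246 against 63.4 and 57.8 FPKM (1.92). Among the rest, YGP1 (1.91), HSP26 (1.25) and the catalase gene CTT1 (1.02, not called without DSE002, adjusted p = 0.0844) rose, while HSP104, HSP78, GRE3 and the activator gene MSN4 were among the 11 not called. Without R8, 2 members were called lower, and voom also called 2 lower.

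Genes known from stationary phase were higher in 6 of 7 cases, with a median of 1.88 and all 6 rises over 2-fold. SPG4, needed for survival in stationary phase, had 24.1 and 23.3 FPKM in IMX606, against 1.55 and 1.81 FPKM in IMX372 (3.20, SE 0.23, adjusted p = 2.07e-06). RTC3 had 97.1 and 123 against 17.2 and 14.8 FPKM (2.70, adjusted p = 1.68e-07). SNZ1, of vitamin B6 synthesis, had 331 and 596 against 83.4 and 77.6 FPKM (2.45, adjusted p = 2.74e-05), with R8 well above R13. SPG1 (12.2 and 10.7 against 2.56 and 2.73 FPKM) rose by 1.77.

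In trehalose metabolism, the pathway of a storage and protective sugar, 5 of 10 genes rose and 0 fell. PGM2, the phosphoglucomutase that leads into it, had 28.8 and 27.5 FPKM in IMX606, against 10.6 and 10.3 in IMX372 (1.35, SE 0.14, adjusted p = 3.52e-05). The trehalose synthase subunit genes TSL1 (17.1 and 18.6 against 8.62 and 7.98 FPKM, 1.02), TPS2 (37.6 and 49.1 against 24.5 and 28.8, 0.67) and TPS1 (121 and 115 against 90.8 and 75.6, 0.50) and the trehalase gene NTH1 (0.46) rose as well. The call of TPS2 ended without DSE001 (adjusted p = 0.0781), that of TPS1 without DSE002 (0.178) and that of NTH1 without R8 (0.102), DSE001 (0.0843) or DSE002 (0.147). The count was 3 without DSE001, 3 without DSE002 and 3 without the filter. Of 14 glycogen genes 2 rose and 1 fell. GSY2, glycogen synthase, had 41.9 and 50.4 against 17.7 and 19.5 FPKM (1.26, adjusted p = 6.86e-05), which is uncertain for its opposite-strand neighbour HSP60 and lies in the chromosome XII stretch. GDB1, the debranching enzyme gene, rose by 0.57, a call that ended without DSE001 (0.0612) or DSE002 (0.101). GAC1, which targets a phosphatase to glycogen synthase, fell to 1.90 and 0.884 FPKM, against 9.82 and 11.4 (-2.31, SE 0.23, adjusted p = 2.38e-05).

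**Figure D5:**
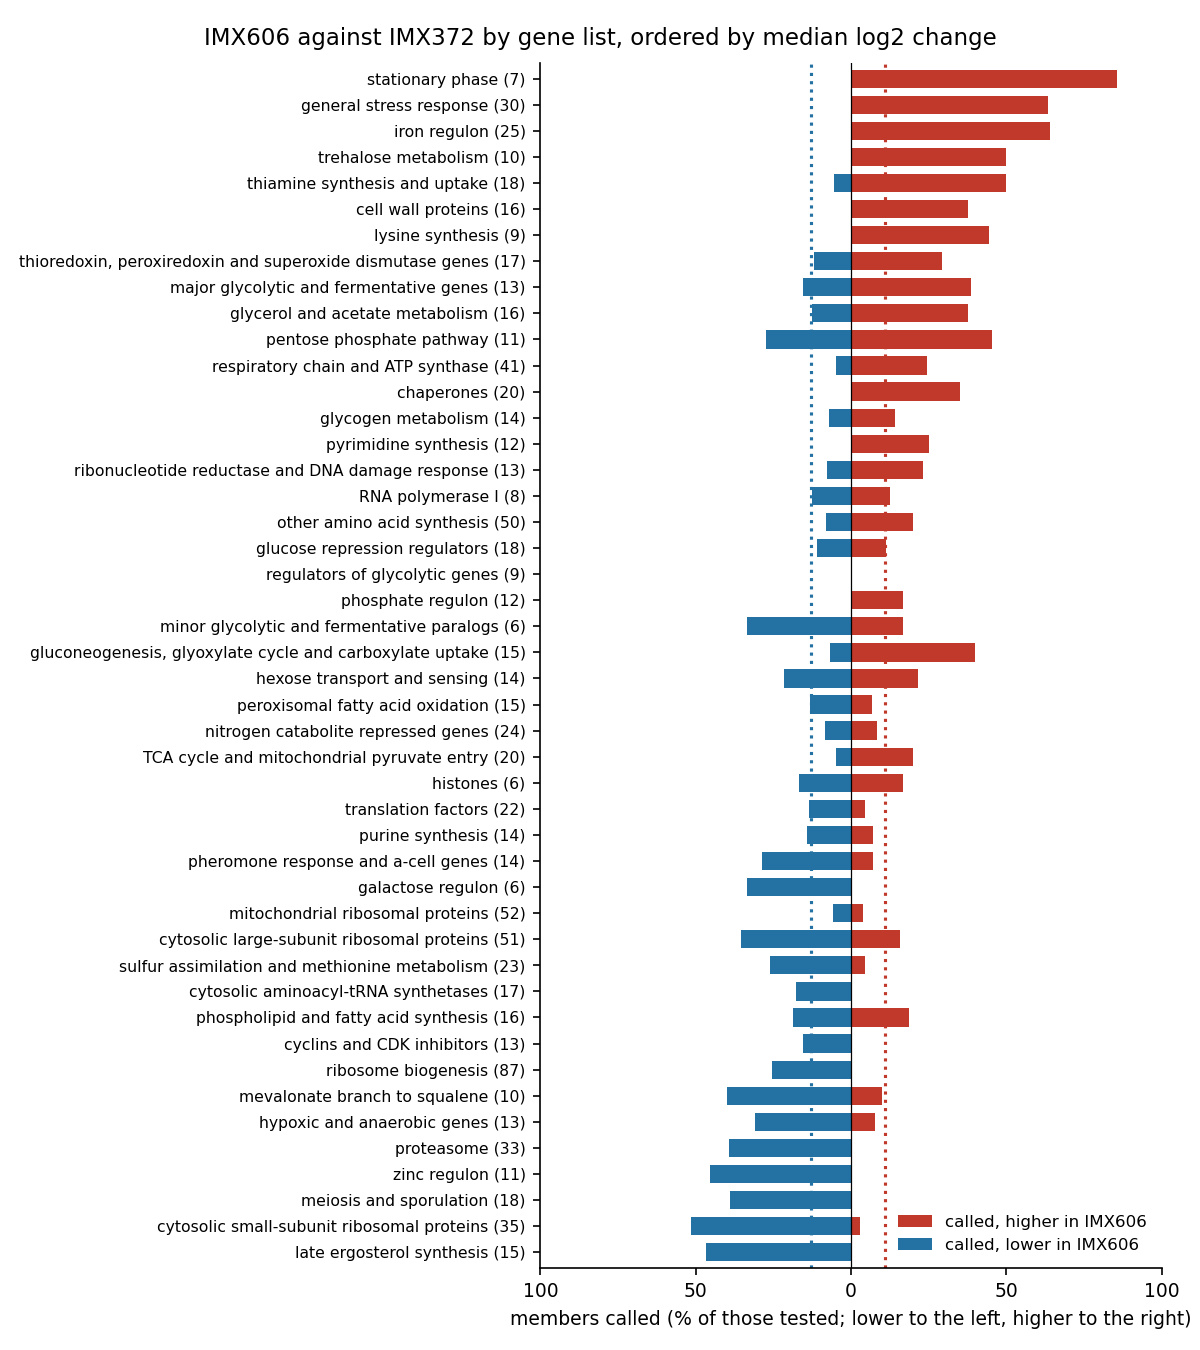
Share of the tested members of each gene list called higher (red, to the right) or lower (blue, to the left) in IMX606 against IMX372, ordered by the list's median change, with the number tested in brackets. Dotted lines mark the shares over all models, 10.9% higher and 12.9% lower, and stationary phase, stress and iron lists reach furthest to the right.

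The iron regulon, genes that cells turn on when iron is scarce, was higher in 16 of 25 cases and lower in 0, with a median of 0.69. Fewer were called higher without R8, DSE001 or DSE002, where the median was 0.48, 0.64 and 0.64. FIT3, a cell wall mannoprotein gene that helps retain siderophore iron, had 363 and 490.2 FPKM in IMX606, against 31.7 and 29.5 FPKM in IMX372 (3.74, SE 0.24, adjusted p = 7.28e-07). TIS11, whose product degrades mRNAs of iron-using proteins, had 70.9 and 97.5 against 18.8 and 21.2 FPKM (2.01, adjusted p = 2.34e-06). The siderophore reductase gene FRE3 had 27.3 and 47.7 against 9.23 and 10.7 FPKM (1.76, adjusted p = 0.000499), and the siderophore transporter gene SIT1 had 46.8 and 82.4 against 20.4 and 24.9 FPKM (1.42, adjusted p = 0.000553). In each of the 4 genes R8 was the higher IMX606 culture, and both cultures lay above both of IMX372. In reductive uptake the ferroxidase gene FET3 (0.64) and the reductase genes FRE1 (1.01) and FRE2 (0.71) rose, while the permease gene FTR1 was not called. The call of FRE1 ended without R8 (adjusted p = 0.118), DSE001 (0.210) or DSE002 (0.134), and that of FRE2 without DSE001 (0.0707).

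In the zinc regulon, genes that cells turn on when zinc is scarce, 5 of 11 genes were lower and 0 higher, with a median of -0.28. ZRT1, the high-affinity zinc transporter gene, had 23.2 and 23.5 FPKM in IMX606, against 50.9 and 42.5 in IMX372 (-0.97, SE 0.13, adjusted p = 0.000281). VEL1 had 1.29 and 1.66 against 7.10 and 8.18 FPKM (-1.81, adjusted p = 0.000175), and ZRT2, the low-affinity transporter gene, had 102 and 106 against 145 and 147 FPKM (-0.49, adjusted p = 0.00485). The vacuolar transporter gene ZRC1 fell by 0.44 and ZPS1 by 0.46. Both calls ended without R13 (adjusted p = 0.0872 and 0.0593) and without DSE002 (0.146 and 0.0521), and that of ZPS1 also without DSE001 (0.103). The count was 3 without R13 and 3 without DSE002. ZRT1 is also the second model outward from HXK2.

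In the phosphate regulon 2 of 12 genes were called higher, and the IMX606 cultures stood far apart in both. PHO89, a sodium-phosphate cotransporter gene, had 6.89 (R13) and 29.5 (R8) FPKM in IMX606, against 3.42 and 3.61 in IMX372 (1.78, SE 0.44, adjusted p = 0.0139). SPL2 had 3.25 and 14.9 against 1.97 and 2.12 FPKM (1.43, SE 0.48, adjusted p = 0.0494). PHO84, the high-affinity phosphate transporter gene, had 5.92 and 30.0 FPKM, below and above the 16.6 and 17.7 FPKM of IMX372 (-0.31, adjusted p = 0.717). The PHO89 call ended without DSE001 (0.110) or DSE002 (0.126), that of SPL2 also without R8 (0.225), and the count was 0 without DSE001, 0 without DSE002 and 0 without the filter.

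Thiamine genes rose in 9 of 18 cases and fell in 1, but 6 of the 9 have near-identical copies. THI11 (9.96 and 11.4 against 2.43 and 2.35 FPKM, 1.78), THI12 (3.22 and 5.44 against 0.869 and 0.660, 1.56) and SNZ3 (14.7 and 20.6 against 8.30 and 6.95, 1.10) are among them and uncertain. Of the 12 genes with neither a copy nor an abundant opposite-strand neighbour, 3 rose, THI4, THI7 and THI72 (0.68, 0.46 and 0.52), and PHO3, an acid phosphatase gene, fell by 0.91 (adjusted p = 0.000490). The calls of THI4, THI7 and THI72 ended without DSE002, where fewer genes of the list were called higher. Those of THI4 and THI72 also ended without R8 or DSE001, and that of THI7 without R13.

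Cell wall genes were higher in 6 of 16 cases and lower in 0. PIR3, a covalently linked wall protein gene, had 36.1 and 42.9 FPKM in IMX606, against 9.79 and 7.07 in IMX372 (2.11, SE 0.16, adjusted p = 2.45e-06). The mannoprotein genes SED1 (847 and 815 against 382 and 315 FPKM, 1.26, adjusted p = 9.48e-06) and CWP2 (4685 and 4704 against 2376 and 2346, 0.99, adjusted p = 9.93e-06) rose. So did FKS1, a glucan synthase gene (153 and 137 against 85.6 and 75.7 FPKM, 0.84, adjusted p = 0.000512). The groups of all 4 genes were well separated. TOS6, another wall protein gene, had 782 and 309 against 183 and 122 FPKM (1.71, adjusted p = 0.00371) and differed strongly between the IMX606 cultures, with a call that ended without DSE002 (0.0975) and without the filter (0.0536).

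Genes of the cytosolic ribosome fell more often than they rose. Of 35 small-subunit protein genes tested, out of 44 listed, 18 were lower and 1 higher, with a median of -0.32. RPS0A had 997 and 971 FPKM in IMX606, against 1723 and 1668 in IMX372 (-0.78, SE 0.09, adjusted p = 0.000118). RPS3 had 3303 and 3006 against 4930.3 and 4963 FPKM (-0.65, adjusted p = 0.000517). The gene that rose, RPS28B, lies in the chromosome XII stretch. The count of falls was 11 without DSE002.

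Of 51 large-subunit genes tested, out of 63 listed, 18 were lower and 8 higher, with a median of -0.16. The 8 rises were 4 pairs of duplicated genes, RPL4A and RPL4B (1.13 and 1.15), RPL7A and RPL7B (0.83 and 0.82), RPL11A and RPL11B (0.46 and 0.40), and RPL14A and RPL14B (0.43 and 0.37). RPL4A had 1789.7 and 1605 FPKM in IMX606, against 843 and 714 FPKM in IMX372. Each has a near-identical duplicate, between which reads could be split, or lies by an abundant gene of the other strand, and is uncertain, and among the 41 with no such mark, 16 fell and 0 rose. The falls ranged from 0.33 to 0.58 in size and included RPL10 (-0.55), RPL3 (-0.36) and RPL5 (-0.35). Of these falls, that of RPL3 was not called without R8, DSE001 or DSE002, and that of RPL5 with any library left out. Their count was 8 without DSE001, 10 without DSE002 and 9 with median-of-ratios scaling, and that of the rises was 5 without DSE001 and 5 without DSE002.

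Ribosome biogenesis genes, which make and mature ribosomal RNA and assemble the subunits, were lower in 22 of 87 cases and higher in 0, and 73 of the 87 changes were below 0 (median -0.21). RRP1 had 102 and 90.1 FPKM in IMX606, against 141 and 149 in IMX372 (-0.59, SE 0.11, adjusted p = 0.00262). YTM1 had 85.6 and 88.7 against 132 and 126 FPKM (-0.56, adjusted p = 0.00291), and BRX1 had 215 and 209 against 289 and 343 (-0.57, adjusted p = 0.00386). No member changed by 2-fold. The count was 3 without DSE002, 10 without R8, 14 with median-of-ratios scaling, 11 with quantile normalization and 11 without the filter. Of 8 RNA polymerase I genes 1 was called higher and 1 lower, with a median of 0.05. The subunit gene RPA49 had 142 and 141 against 194 and 220.3 FPKM (-0.55, adjusted p = 0.00377), and the subunit gene RPA14 had 218 and 121 against 104 and 79.8 FPKM (0.83, adjusted p = 0.0237), a call that ended without R13 (0.0965), DSE001 (0.0651) or DSE002 (0.235). Of 52 mitochondrial ribosomal protein genes 2 were called higher and 3 lower, and of 22 translation factor genes 1 higher and 3 lower. Of 17 aminoacyl-tRNA synthetase genes 0 were higher and 3 lower. Over all models 10.9% were called higher and 12.9% lower. Without DSE002 none of the translation factors or synthetases was called, and of the mitochondrial ribosomal proteins 0 were higher and 1 lower.

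Proteasome subunit genes were lower in 13 of 33 cases and higher in 0, with a median of -0.25 and falls of 0.31 to 0.55. PRE6, of the core particle, had 379 and 362 FPKM in IMX606, against 583 and 505 in IMX372 (-0.55, SE 0.10, adjusted p = 0.00314). PUP2, also of the core, had 331 and 347 against 467 and 443 FPKM (-0.42, adjusted p = 0.0102), and the ATPase subunit gene RPT6 of the cap had 271 and 275 against 347 and 381 FPKM (-0.41, adjusted p = 0.0123). RPN4, the activator of these genes, was not called. The count was 5 without R13, 8 without R8, 6 without DSE001, 3 without DSE002 and 8 without limma's trend.

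Chaperone genes were higher in 7 of 20 cases and lower in 0. SSA1 (429 and 401 against 154 and 123 FPKM, 1.58) and SSA2 (1462 and 1210.5 against 591 and 529.7, 1.25), cytosolic Hsp70 genes, are near-identical to each other and uncertain. SSE2, an Hsp110 nucleotide exchange factor gene, had 22.8 and 24.6 FPKM in IMX606, against 9.67 and 8.98 in IMX372 (1.26, adjusted p = 7.01e-05). HSP60 rose within the chromosome XII stretch, while HSP10, its partner on another chromosome, was not called.

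In the late steps of sterol synthesis, from squalene to ergosterol, 7 of 15 genes fell, 0 rose and 8 were not called, with a median of -0.33. ERG11, lanosterol demethylase, had 391 and 446 FPKM in IMX606, against 690.3 and 748 FPKM in IMX372 (-0.78, SE 0.10, adjusted p = 0.000261). ERG2, a sterol isomerase gene, had 537 and 604 against 996 and 879 FPKM (-0.72, adjusted p = 0.000559). ERG25, a methyl oxidase gene, had 791 and 903 against 1289 and 1346 (-0.64, adjusted p = 0.000865), and the desaturase gene ERG3 had 661 and 753 against 1005 and 993 (-0.50, adjusted p = 0.00422). R8 was the higher IMX606 culture in all 4 genes and still lay below both of IMX372. The count was 4 without R13 and 4 without DSE002. In the mevalonate branch before squalene 4 of 10 fell, among them ERG20 (-0.37), IDI1 (-0.37) and ERG9 (-0.36), and MVD1 rose by 0.36, but 0 of the 10 were called without R13 and 0 without DSE002, and 1 fell without DSE001. The call of MVD1 held without DSE001 and R8. The 4 falls were 2 with median-of-ratios scaling, with quantile normalization, without the trend and with only the 4 libraries in the fit.

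In phospholipid synthesis INO1, which makes inositol phosphate and is repressed by inositol, had 25.8 and 34.9 FPKM in IMX606, against 8.04 and 8.66 in IMX372 (1.73, SE 0.15, adjusted p = 7.68e-06). The inositol transporter gene ITR1 had 424 and 429 against 631 and 629 FPKM (-0.56, adjusted p = 0.00144). OPI1, the repressor of this regulon, fell by 0.48 and lost its call without DSE001 (adjusted p = 0.0954). Of the 16 genes 3 rose and 3 fell. The numbers ran from 1 to 4 higher and 2 to 6 lower when each library was left out, with 1 higher without R13, 1 higher without DSE002 and 6 lower without R8.

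In the respiratory chain and ATP synthase 10 of 41 genes rose and 2 fell, with a median of 0.09. COX9, a subunit gene of cytochrome c oxidase, had 1351 and 1416 FPKM in IMX606, against 725 and 789 in IMX372 (0.87, SE 0.10, adjusted p = 6.01e-05). ATP15, the epsilon subunit gene of ATP synthase, had 2148 and 2605 against 1171 and 1475 FPKM (0.85, adjusted p = 0.000790), and CYC7, a cytochrome c isoform gene, had 26.5 and 23.0 against 10.9 and 9.80 (1.18, adjusted p = 0.000249), uncertain for its opposite-strand neighbour. The falls were of the ATP synthase subunit genes ATP3 (-0.32) and ATP14 (-0.31), and both calls ended with each library left out (adjusted p of 0.0534 to 0.203). The count of rises was 5 without R8, 5 without DSE001, 4 without DSE002 and 4 without the filter.

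At the entry of pyruvate into mitochondria and the TCA cycle 4 of 20 genes rose and 1 fell. PYC1 and PYC2, the pyruvate carboxylase genes, had 240.1 and 232 against 137 and 122 FPKM (0.86, adjusted p = 0.000130) and 105 and 93.1 against 69.5 and 63.0 FPKM (0.57, adjusted p = 0.00386). The mitochondrial pyruvate carrier gene MPC2 had 2891 and 3119 FPKM in IMX606, against 1997 and 2181 in IMX372 (0.52, adjusted p = 0.00281). The gene that fell is PDX1, the neighbour of TDH3. In gluconeogenesis, the glyoxylate cycle and carboxylate uptake 6 of 15 rose and 1 fell. FBP1, the gluconeogenic bisphosphatase gene, averaged 2.10 ± 0.564 FPKM over the IMX606 cultures and 8.20 ± 0.566 FPKM over those of IMX372 (SD of 2 cultures), a change of -1.58 (adjusted p = 0.000153). The lactate transporter gene JEN1 (9.22 and 10.5 against 5.65 and 5.15 FPKM, 0.76) and the carnitine acetyltransferase gene YAT2 (29.5 and 43.5 against 17.8 and 19.2, 0.92) rose, and PCK1, ICL1 and MLS1 were not called.

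Among glucose repression regulators ADR1, an activator of genes for non-fermentable carbon, had 5.28 and 7.09 FPKM in IMX606, against 1.33 and 1.41 in IMX372 (1.59, SE 0.20, adjusted p = 0.000149). SNF1, SNF4 and MIG1 changed by 0.38, -0.42 and -0.39, calls that each ended without DSE002, where fewer of the 18 were called. That of SNF1 also ended without R13 or DSE001, and that of MIG1 without R8 or DSE001. Of 14 hexose transport and sensing genes 3 rose and 3 fell. HXT1, a low-affinity transporter gene of high glucose, had 57.3 and 114 against 33.5 and 38.1 FPKM (1.15, adjusted p = 0.00900), a call that ended without DSE001 (0.0977) or DSE002 (0.0844), where 1 rise was left each time. The galactose transporter gene GAL2 (0.464 and 1.14 against 4.64 and 4.58 FPKM, -1.66, adjusted p = 0.000541) and the activator gene GAL4 (1.07 and 1.34 against 9.67 and 9.87, -2.29, adjusted p = 7.37e-06) were lower, while GAL1, GAL7 and GAL10 were not called. Of the 6 genes of the galactose list 0 were called higher and 2 lower, GAL4 and GAL80. GAL80 fell by 0.37 (limma, adjusted p = 0.0237), a call that ended with each library left out. HXT6 (1.71) and HXT15 (-3.06) have near-identical copies and are uncertain.

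The pentose phosphate pathway, which makes NADPH and ribose phosphate beside glycolysis, had 5 of 11 genes higher and 3 lower. Among the rises were NQM1, a transaldolase paralog (22.3 and 39.3 FPKM in IMX606, against 4.68 and 6.01 in IMX372, 2.28, adjusted p = 2.22e-05), and SOL4, a phosphogluconolactonase gene (22.0 and 20.4 against 8.59 and 7.02, 1.34, adjusted p = 0.000238). The minor transketolase gene TKL2 had 2.58 and 2.86 against 7.42 and 6.65 FPKM (-1.11, adjusted p = 0.000995), and RKI1, ribose-phosphate isomerase, had 162 and 156 against 221 and 234 (-0.51, adjusted p = 0.00435). ZWF1, the first enzyme, rose by 0.50, a call that ended without R13 (0.0571) or DSE002 (0.148), and the main genes TAL1, TKL1 and GND1 were not called. The rises numbered 3 without R13, 2 without DSE002, 3 without the filter and 3 at a mean of at least 5 FPKM.

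In glycerol and acetate metabolism 6 of 16 genes rose and 2 fell. GPD1, which directs triose phosphate to glycerol, had 193 and 221 FPKM in IMX606, against 143 and 141 in IMX372 (0.54, SE 0.11, adjusted p = 0.00437). STL1, a glycerol symporter gene, had 1.03 and 1.72 against 5.18 and 4.41 FPKM (-1.30, adjusted p = 0.00143), and the acetaldehyde dehydrogenase gene ALD6 fell by 0.53, a call that ended without DSE001 (0.0583) or DSE002 (0.0773). The rises numbered 2 without DSE002 and 3 without the filter. Of 15 genes of peroxisomal fatty acid oxidation, the catalase gene CTA1 (4.82 and 4.14 against 18.4 and 20.1 FPKM, -1.88, adjusted p = 4.50e-06) and POT1 (-1.37) fell and PCS60 rose by 0.43 (not called without R8, 0.0717, or DSE002, 0.113), with FOX2 and POX1 not called.

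Lysine synthesis had 4 of 9 genes higher and 0 lower. LYS1, saccharopine dehydrogenase, had 1116 and 1181 FPKM in IMX606, against 619 and 653 in IMX372 (0.85, SE 0.09, adjusted p = 6.35e-05), and LYS2, aminoadipate reductase, had 202 and 184 against 128 and 117 (0.65, adjusted p = 0.00144). The homocitrate synthase genes LYS20 and LYS21 rose by 0.71 each but are near-identical to each other. Among 50 other amino acid synthesis genes 10 rose and 4 fell, with a median of 0.01. ARO1, of the shikimate pathway, had 86.4 and 81.9 against 53.3 and 42.3 FPKM (0.81, adjusted p = 0.000717). The transaminase gene BAT2 rose by 0.90, and SER33, of serine synthesis, had 533 and 618 against 819 and 834 FPKM (-0.53, adjusted p = 0.00410). The count of rises was 4 without DSE002, and that of falls 2 without R13 and 1 without DSE002.

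In sulfur assimilation and methionine metabolism 6 of 23 genes fell and 1 rose, with a median of -0.16. MET17, which fixes sulfide, had 2562 and 3127 FPKM in IMX606, against 3902 and 4198 in IMX372 (-0.52, adjusted p = 0.00619), and MET16, of sulfate reduction, had 466 and 446 against 622 and 617 (-0.44, adjusted p = 0.00631). The regulator gene MET28 had 409.6 and 418 against 295 and 283 FPKM (0.52, adjusted p = 0.00344) and the regulator gene MET32 fell by 0.52. The falls numbered 3 without R13 and 1 without DSE002, which also ended the MET17 call (0.0817). Of 24 nitrogen-repressed genes 2 rose, 2 fell and 20 were not called. The arginase gene CAR1 rose by 0.81 (56.6 and 89.9 against 43.6 and 37.4 FPKM), a call that ended without DSE002 (0.117), and glutamine synthetase gene GLN1 fell by 0.39 (1527 and 1621 against 2159 and 1981 FPKM), a call that ended without R13 (0.0653), DSE001 (0.0933) or with median-of-ratios scaling (0.0515). The allantoin permease gene DAL4 had 2.68 and 3.85 against 5.65 and 5.95 FPKM (-0.69, adjusted p = 0.0273), a call that ended without R13 (0.107), DSE001 (0.103) or DSE002 (0.158). CAR2 (1.59) is uncertain for an opposite-strand neighbour, and GAP1, MEP2 and DAL80 were not called. Purine synthesis had 1 of 14 higher (ADE6, 0.43) and 2 lower (ADE8 and MTD1, -0.36 and -0.37), none of which held without each library. Over all models 10.9% were higher and 12.9% lower.

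In the thioredoxin and peroxiredoxin system TRX1 stood apart. TRX2, the other cytosolic thioredoxin gene, and the reductase gene TRR1 were not called. AHP1, a peroxiredoxin gene, had 4468 and 3145 FPKM in IMX606, against 1879 and 1457 in IMX372 (1.18, SE 0.16, adjusted p = 0.000260), GPX2, a peroxidase gene, had 149.6 and 140.4 against 52.8 and 69.4 (1.25, adjusted p = 6.55e-05) and the sulfiredoxin gene SRX1 rose by 1.28, a call that ended without DSE001 (0.0870) or DSE002 (0.0936). TSA1, SOD1 and SOD2 were not called. Of the 17 genes 5 rose and 2 fell, with 2 rises without DSE001 and 3 without DSE002, and 1 fall without R8 and 1 without DSE001.

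In the DNA damage response HUG1, a damage-inducible gene, had 23.4 and 26.9 FPKM in IMX606, against 10.4 and 7.84 in IMX372 (1.38, SE 0.17, adjusted p = 0.000118). SML1, an inhibitor of ribonucleotide reductase, had 1343 and 1424 against 1004 and 968 FPKM (0.49, adjusted p = 0.00333), and RNR2, a subunit gene of that enzyme, had 139.7 and 139.6 against 189 and 197 (-0.46, adjusted p = 0.00618). RNR1, RNR3, RNR4 and RAD54 were not called. Hypoxic genes had 1 of 13 higher and 4 lower, among them the wall protein gene TIR2 (11.4 ± 0.906 FPKM in IMX606 and 23.8 ± 1.82 in IMX372, SD of 2 cultures, -1.01, adjusted p = 0.000252). The falls numbered 2 without R8, 1 without DSE001, 2 without DSE002 and 1 without the filter. Of 13 cyclin and inhibitor genes PCL9 (-0.42) and CLB5 (-0.36) fell and 0 rose, beside 12.9% lower and 10.9% higher over all models. Neither call held without DSE002 or without the filter. Among 6 histone genes HTA2 rose by 0.39 and HTB1 fell by 0.41, and neither was called without DSE002 (0.0709 and 0.142).

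Genes of meiosis and sporulation, which growing haploid cells hardly transcribe, were lower in 7 of 18 cases and higher in 0, with a median of -0.30. IME4, an mRNA methyltransferase gene of meiotic entry, had 0.296 and 0.285 FPKM in IMX606, against 36.0 and 39.5 FPKM in IMX372 (-4.91, SE 0.19, adjusted p = 1.61e-08). SPO13, a gene of the first meiotic division, had 0.974 and 1.82 against 7.35 and 10.9 FPKM (-2.08, adjusted p = 7.56e-05), and SPS2 had 0 and 0.217 against 4.26 and 4.23 FPKM (-2.25, adjusted p = 5.59e-05). IME4 and SPS2, under 1 FPKM in both IMX606 cultures, passed the filter only through IMX372, so they could be called in no direction but lower. SMK1 (-3.80) lies beside an abundant opposite-strand gene and is uncertain. The regulators IME1 and IME2 were not called. In IMX605, set against the same IMX372 libraries, IME4 changed by -4.83 and the median of the list was -0.09. The counting's strand setting is not given, so RNA from the opposite strand of these genes cannot be told apart from their own.

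Low levels in IMX606 beside clear signal in IMX372 recurred beyond that list. Under 1 FPKM in both IMX606 cultures and over 5 FPKM in both IMX372 cultures were 20 gene models, while 5 showed the reverse. Besides IME4 they included RRT12 (0.795 and 0.380 against 31.8 and 25.8 FPKM, -4.24), the meiotic splicing factor gene MER1 (0.131 and 0.115 against 9.21 and 11.7, -3.34), the recombination genes REC114 (-3.00) and ZIP2 (-2.99), the spore gene SPO75 (-2.91) and the endopolygalacturonase gene PGU1 (0.295 and 0.345 against 11.1 and 10.9, -3.18). JIP3 (0.783 and 0.275 against 107.4 and 98.3 FPKM, -6.10) fell furthest, but it overlaps another gene and is uncertain. YPR027C changed by -3.95, YKL070W (2.09 and 1.74 against 38.4 and 40.9 FPKM, not among the 20) by -3.80 and YDL186W by -3.12. These genes were picked for their values, so their number is a description. In IMX605, set against the same IMX372 libraries, the 20 models changed by -6.13 (JIP3) to -1.85 (YMR317W), so the low levels are not particular to IMX606. MF(ALPHA)2, an α-factor gene that a cells keep silent, had 1.18 and 0.902 FPKM in IMX606, against 19.3 and 14.6 in IMX372 (-3.13, adjusted p = 8.69e-07), whereas the main α-factor gene MF(ALPHA)1 stayed between 1.31 and 2.75 FPKM in the 4 libraries. Of 14 pheromone response and a-cell genes PRM1 (2.95 and 3.30 against 10.9 and 10.8 FPKM, -1.52), STE2 (-0.58), GPA1 (-0.42) and KAR4 (-0.37) fell and STE12 rose by 0.36. The falls numbered 2 without R13 and 2 without DSE002, and STE12 was not called when any 1 of the 4 libraries was left out.

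Set beside the other single-locus strain, IMX606 differed in few genes. The models tested are those that passed the filter on IMX606 and IMX372. Genes below it were not tested, whatever their level in IMX605, so genes lower in IMX606 can be missed. Limma called 10 of the 5454 models (0.183%), 7 higher and 3 lower, and 198 (3.63%) had an unadjusted p under 0.05. CAN1 and FMC1, given above, were 2 of them. The 2-micron genes REP1 and REP2 were higher in IMX606 than in both other strains, at 746 and 728 FPKM for REP1, against 458 and 477 in IMX605. Against IMX605 both calls ended without either library of IMX605 or of IMX372. YOL162W and YOL163W, neighbours on chromosome XV, had 20.2 and 25.0, and 36.9 and 38.7 FPKM in IMX606, against 46.5 and 45.6, and 77.3 and 82.7 FPKM in IMX605, where IMX372 (22.9 and 24.4, and 41.0 and 40.0) lay at the level of IMX606. None of the 13 relocated genes was called, nor any member of the stress, iron, ribosomal or sterol lists. The count was 99 without R13, 16 without R8, 11 without R12 and 6 without R7 of IMX605, 5 without DSE001, 5 without DSE002 and 5 without the filter.

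Between the 2 cultures of IMX606 themselves the genes with the widest log2 differences were PHO84 (-2.16, R13 minus R8), PHO89 (-1.95), SPL2 (-1.91) and the amino acid permease gene DIP5 (43.5 in R13 and 127 FPKM in R8, -1.52) on the side of R8. On the side of R13 stood TOS6 (1.34), TIR3 (79.6 and 33.9 FPKM, 1.21) and LAS17 (30.0 and 9.30 FPKM, 1.59), the last uncertain for an abundant opposite-strand neighbour. These genes were chosen for that difference, and the change of PHO84, DIP5, TIR3 or LAS17 between the strains was not called.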

How the data were processed

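The values are the FPKM values deposited by the authors, in 1 table of 5625 gene models with CEN.PK113-7D coordinates (build name not given in the sources used). Per the submitters' processing notes, STAR 2.5.4a, SAMtools, featureCounts, edgeR and DESeq2 were used, with no roles given. All values (100%) are whole multiples of 1 step per library (tolerance 0.01), which gave the reads on genes. Log2(FPKM + 1) values of the 5454 models were fitted over all 6 libraries of the 3 strains with limma 3.58.1 in R 4.3.3 (1 mean per strain, trend, residual df 3, prior df 8.41, median residual SD 0.116). The fit was also run on simulated reads with 1 dispersion for all genes and no difference between library sets. That run cannot measure what the library set adds to the calls. Near-identical copies have at least 95% identity over 200 bases in the S288C reference (BLAST 2.17.0), and abundant opposite-strand neighbours are at least 10 times as high and no more than 500 bases away.

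The members, the 46 gene lists and the tests were chosen with earlier results of these data known. Named are the relocated genes and minor paralogs, the 10 largest changes each way, up to 4 called genes of a list with the smallest adjusted p, genes within 10 kb of SGA1, URA3, the genes that differ most between the IMX606 cultures, and calls against IMX605. Others, and the neighbours of native loci and the chromosome XII stretch, were named after their values were seen. Alternatives were other pseudocounts (0.1 and 5), filters, scalings, fits and left-out libraries, and voom on the recovered reads. The sums were compared by exact permutation. The promoters that the naming rule provides for are not printed, because no sequence of the files' build was used here. Some genes within the rule are not reported here.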

Additional observations from a re-analysis of the deposited data

Results flagged for a closer look

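10 gene models differed between IMX606 and IMX605, the strain with the single locus on chromosome V, by limma's test of that difference (IMX606 minus IMX605, log2 scale, n = 2 cultures each). Only models that passed the filter on IMX606 and IMX372 were tested. PAU1 model 2, 1 of a family of near-identical genes and uncertain, had 42.2 and 39.3 FPKM in IMX606, against 0 in both IMX605 libraries (5.38, adjusted p = 6.94e-09). FMC1 (3.90, adjusted p = 1.51e-05) and FYV10 (17.3 and 18.1 against 5.03 and 5.59 FPKM, 1.57, adjusted p = 0.000704) flank SGA1 on chromosome IX. CAN1 on chromosome V differed by 3.52 (adjusted p = 6.94e-09). Each of these 4 calls held with each of the 6 libraries left out.

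The 2-micron genes REP2 (0.69, adjusted p = 0.0174) and REP1 (0.66, adjusted p = 0.0150) were higher in 2 of 2 IMX606 cultures, calls that ended without DSE001 (adjusted p = 0.136 and 0.0779) or without DSE002 (0.139 and 0.0799), and without R12 (0.135 and 0.116) or R7 (0.0577 and 0.0770) of IMX605. On chromosome XV YOL163W (-1.06, adjusted p = 0.000704) and YOL162W (-1.01, adjusted p = 0.00540) were lower in both cultures. AAD15 (6.66 and 8.56 against 16.7 and 22.2 FPKM, -1.24, adjusted p = 0.0130) was lower too and is uncertain for its copy AAD3. The calls of YOL162W and AAD15 ended without DSE001 (0.0604 and 0.113) or DSE002 (0.0608 and 0.115), and that of AAD15 without R7 (0.146).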

How the results depend on the processing

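The calls in IMX606 against IMX372 numbered 1301, and 598 to 1255 with each library left out (598 without IMX372 DSE002). Such a fit leaves a strain with 1 culture, whose spread is taken to be that of the others. The other settings gave 1034 (no filter) to 1408 (voom on the recovered reads), and 1072 were of genes with no copy, shared name, overlap or abundant opposite-strand neighbour. That restriction, the one without the chromosome XII stretch and leaving out the IMX605 libraries were chosen after seeing the data. Of 343 called list members and neighbours of native loci, 153 kept their call with each library left out. For IMX606 against IMX605 the 10 calls were 5 to 99 with each of the 6 libraries left out and 5 without the filter, and the cause was not tested. Of 212 named genes called, 141 kept their call in all 13 settings, 178 in all that left out no library, and 0 changed direction. The summed relocated genes were higher in IMX606 by 240.5 (quantile normalization) to 14154 FPKM (without DSE001) over the 6 settings run for them. No paired analysis was possible because the libraries in the table carry no replicate numbers.

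With 2 cultures a strain the spread rests on 3 residual degrees of freedom. Reuse of the IMX372 libraries and the URA3 difference limit every comparison with them.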
